A study of Homo sapiens with 15 samples.

Results

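The oligosaccharyltransferase (OST) is the enzyme complex of the endoplasmic reticulum (ER) membrane that begins N-glycosylation. It lifts a preassembled sugar tree from its lipid carrier, dolichol, and attaches it to asparagine residues of proteins that are entering the ER. This account covers the 10 OST subunit genes STT3A, STT3B, RPN1, RPN2, DDOST, DAD1, OSTC, OST4, TUSC3 and MAGT1 in MDA-MB-231, a line of human breast cancer cells of triple-negative type. The genes were chosen by name from the 59608 genes of the expression table, by a rule that uses no measured value. All 10 were found, and all 10 passed the filter of a mean of at least 10 normalized counts that left 13561 genes of the table.

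Cells were grown in 2D culture and exposed for 6 h to 0.1% DMSO as vehicle or to ZJ-101 at 0.5, 5, 50 or 500 nM, which gave 5 groups of 3 biological replicates. ZJ-101 is a simplified form of superstolide A, which a marine sponge makes, and the 6 h time point was chosen to find genes that respond before the cells change shape. Poly-A RNA from these 15 dishes was sequenced, so the data describe a single cell line, a single time point and RNA rather than protein or glycan. Each library held 12415519 to 15284762 reads on genes. The values below are normalized counts, which are reads per gene divided by the size factor of the library.

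OST occurs in human cells in a pair of forms that share most subunits. The form built on STT3A sits at the protein-conducting channel and glycosylates chains while they are still being made, and OSTC (also called DC2) holds it there. The form built on STT3B works on sites that were passed over, with the help of MAGT1 or TUSC3, thioredoxin-like proteins that form passing disulfide bonds with the chains to be glycosylated. RPN1 and RPN2 (ribophorins I and II), DDOST (OST48), DAD1 and the very small OST4 belong to both forms.

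Markers of the cell line were checked first. VIM, CD44, EGFR, AXL and CAV1 were abundant in all 15 libraries, with a summed level of 50785 to 54864 normalized counts. Within this sum the genes moved apart at 500 nM, where EGFR stood at 6919 to 8610.0 against 4617 to 4676 in DMSO and AXL at 13928 to 14423 against 12148 to 12257. CD44 stood at 9275 to 9431 against 11976 to 12291 and VIM at 13433 to 13856 against 13996 to 14599, all 4 without overlap. Among genes that a triple-negative mesenchymal line should lack, ESR1 was at 0 in 10 libraries, PGR reached 17.3 and CDH1 206 normalized counts, whereas EPCAM stood at 266 to 320.2 and KRT19 at 5414 to 7629.9. The sum of these 5 genes, nearly all of it KRT19, was 6697 to 6831 in DMSO and 5828 to 6138 at 500 nM. Of 4 markers of other cell types, CD3E was at 0 throughout, PTPRC reached 3.53 and ALB 1.77, and PECAM1 lay at 201 to 321 normalized counts. The summed level of these 4 markers was 239.8 to 293 in DMSO and 200.8 to 232 at 500 nM, and the part of any of these markers in the results below was not tested. Mitochondrial genes took 0.889% to 2.06% of the reads of a library. The library of 0.5 nM replicate 2 lay farthest from the mean of its group, at a root-mean-square distance of 0.213 on the log2 scale against 0.159 to 0.194 for the other 14 libraries. It was the highest of all 15 libraries for DAD1, OSTC and OST4 and the lowest for STT3A.

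At 500 nM, RNA of 5 of the 10 OST subunits fell and none rose by limma with Benjamini-Hochberg adjustment. They were RPN1, STT3B, OSTC, RPN2 and MAGT1, with decreases of 17.9%, 11.5%, 11.0%, 9.74% and 9.34%. Among all genes tested, 17.8% changed at this dose, 7.69% higher and 10.1% lower. The mean at 500 nM lay below that of DMSO for 10 of 10 subunits, against 49.38% of all genes, and the median log2 fold change was -0.13 for the subunits and 0.003 for all genes. All subunits were compared with the same 3 DMSO libraries. The intervals of STT3A, OST4, DAD1 and TUSC3 span 0. STT3A, at -0.013, changed sign without DMSO replicate 1. The 3 treated libraries lay below the 3 DMSO libraries for 7 subunits, the 5 that fell with DDOST and TUSC3, and the same held for 19.6% of all genes. In RNA from whole dishes, fewer cells that express a gene and less of its RNA per cell cannot be told apart.

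These decreases were small, and several calls did not hold with a library left out. With each library left out, log2 fold changes were -0.195 to -0.143 for STT3B, -0.194 to -0.143 for OSTC and -0.162 to -0.107 for MAGT1. RPN1 and RPN2 passed under every alternative tried, whereas the count of 5 subunits became 3 when DMSO replicate 1, DMSO replicate 2 or 500 nM replicate 3 was left out, and 2 when DMSO replicate 3 was. It was also 3 when the filter on low values was dropped. edgeR and DESeq2 on the recovered reads each gave 5 lower and 0 higher, and 0 subunits were higher at an unadjusted p under 0.05 with limma.

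**Figure D1:**
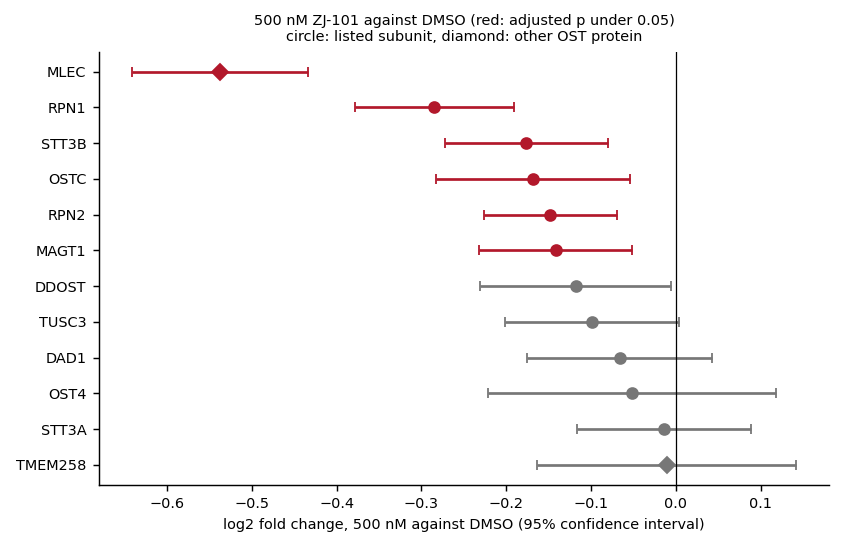
Log2 fold change at 500 nM ZJ-101 against DMSO with its 95% confidence interval for the 10 OST subunits (circles) and for MLEC and TMEM258 (diamonds), 3 libraries a group, red where the limma adjusted p is under 0.05. KRTCAP2, at 12.3 normalized counts in DMSO, is off this scale and left out. RPN1 has the lowest value of the subunits, -0.28, MLEC lies below it at -0.54, and the intervals of STT3A, OST4, DAD1, TUSC3 and TMEM258 span 0.

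The lower doses gave few calls. At 0.5 nM, 0 of 10 subunits passed with limma, edgeR or DESeq2, 2 were lower at an unadjusted p under 0.05, and 1.17% of all genes changed. At 5 nM, MAGT1 alone fell, where 2.18% of all genes changed and 1.71% fell. At 50 nM, 0 subunits passed with any of the 3 tools, 3 were lower at an unadjusted p under 0.05, and 6% of all genes changed. Without 0.5 nM replicate 2 the counts were 0, 2 and 1 at 0.5, 5 and 50 nM, and without 50 nM replicate 2 the count at 50 nM was also 1, all of them lower. The 4 doses were compared with the same 3 DMSO libraries. The libraries of a dose lay below DMSO without overlap for 4 subunits at 0.5 nM, 2 at 5 nM and 2 at 50 nM, where 10.7%, 12.7% and 13.2% of all genes did so.

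**Figure D2:**
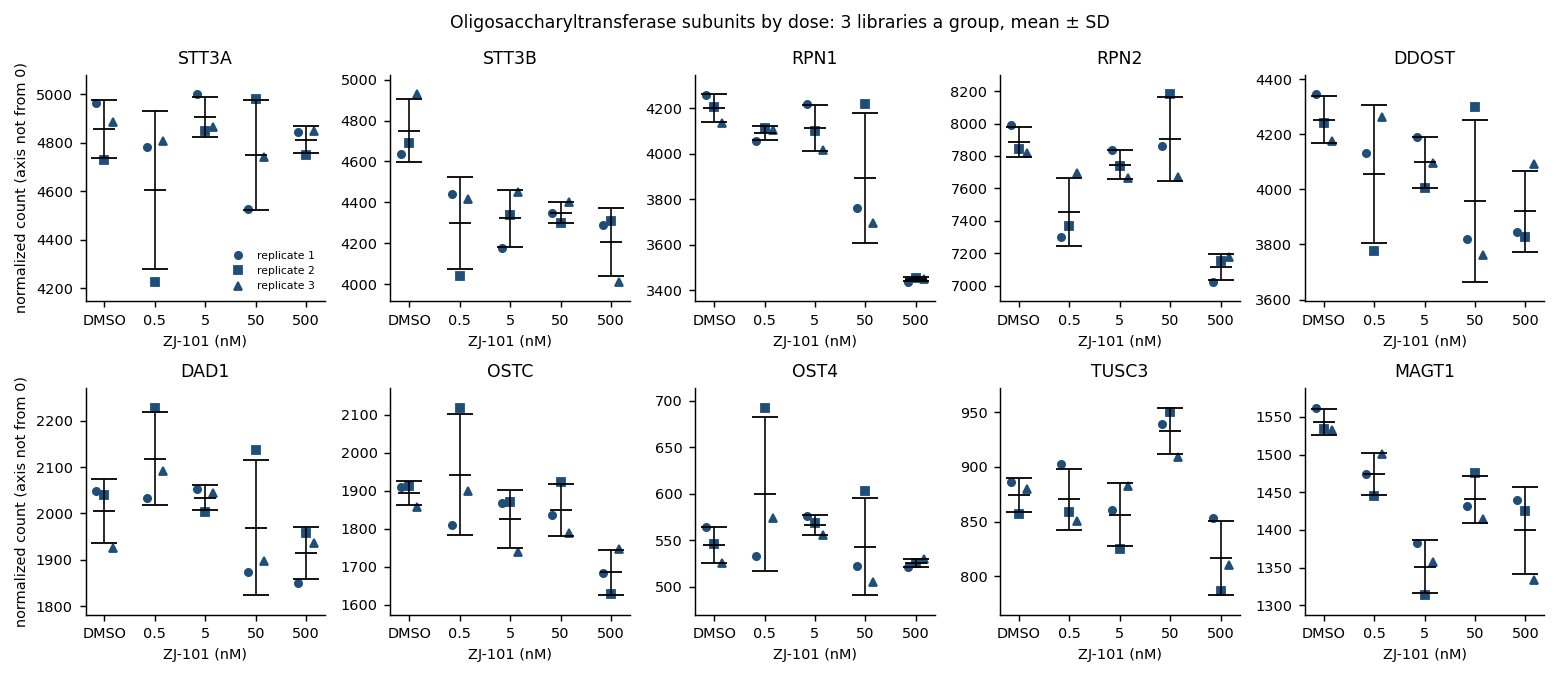
Normalized count of each OST subunit in each of the 15 libraries by ZJ-101 dose, with the mean ± SD of the 3 libraries of a group (vertical axes do not start at 0). The mean is lowest at 500 nM for every subunit except STT3A and MAGT1, and the 3 libraries at 500 nM lie below the 12 others for RPN1 and RPN2 alone. STT3B and MAGT1 lie under the same 3 DMSO libraries at every dose, and STT3A overlaps DMSO at every dose. Shares of all genes with these patterns over all doses were not counted.

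The subunit genes are scattered over the genome. In GENCODE release 44 on GRCh38, 9 of them are protein-coding genes on chromosome 1 (DDOST, 20651767-20661544, minus strand), 2 (OST4, 27070472-27071654, minus), 3 (STT3B, 31532638-31637616, plus, and RPN1, 128619969-128681075, minus), 4 (OSTC, 108650585-108667820, plus), 11 (STT3A, 125591712-125625215, plus), 14 (DAD1, 22564907-22589224, minus), 20 (RPN2, 37178410-37241619, plus) and X (MAGT1, 77825747-77899271, minus). Of the union of exons, bases shared with another gene make up 25.2% of OST4 (AGBL5, opposite strand) and 15.7% of DDOST (PINK1-AS, same strand). On the opposite strand they make up 4.39% of RPN2 and 1.07% of STT3A, and STT3A also shares exon bases with CHEK1 on the same strand. The strand setting of the read counting is not given in the sources used here, so the values of OST4, RPN2 and STT3A are uncertain to that extent. Reads from the part that DDOST shares, and from the part that STT3A shares with CHEK1, cannot be told apart by strand under any setting. OSTC has 7 further copies in the genome at 90% identity or more, 6 of them annotated pseudogenes (OSTCP1 to OSTCP6), and 0 at 95% or more. The other 9 subunits have 0 such copies.

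Promoter windows of RefSeq on GRCh38.p14, 250 bases before to 50 after a start site, were found for 7 of the 10 subunits, without RPN1, STT3B and TUSC3. They were searched on both strands for elements through which ER stress and heat shock act on genes. These were the ER stress response element ERSE (CCAAT, 9 bases and CCACG), ERSE-II (ATTGG, 1 base and CCACG), the unfolded protein response element UPRE (TGACGTGG) and the heat shock element HSE (GAA, 2 bases, TTC, 2 bases and GAA). The plain CCAAT box was searched too, which each ERSE and ERSE-II contains. A gene with several windows was counted once, if any of them held the motif. ERSE, ERSE-II, UPRE and HSE were in 0 of the 7 subunits, and in 0.0916%, 0.0696%, 0.927% and 0.608% of the 27305 genes with a window. Shares this low make 0 of 7 the likely outcome for any 7 genes, so no conclusion about the subunits is drawn from it. CCAAT was in 4 of the 7 (STT3A, DDOST, DAD1 and MAGT1) and in 39.7% of these genes. CALR, the ER lectin chaperone described below with the pathway, has an ERSE in its window. The 250 bases before the start site are given for 3 subunits that fell at 500 nM, for STT3A, which did not pass, and for CALR, each 5′ to 3′ on the strand of the gene and with CCAAT or ERSE in either orientation in capitals.
RPN2: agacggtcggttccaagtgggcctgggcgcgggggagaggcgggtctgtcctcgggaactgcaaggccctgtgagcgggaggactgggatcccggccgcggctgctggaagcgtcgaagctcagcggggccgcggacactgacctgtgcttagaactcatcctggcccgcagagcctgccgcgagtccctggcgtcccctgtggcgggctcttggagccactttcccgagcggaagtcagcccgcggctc
OSTC: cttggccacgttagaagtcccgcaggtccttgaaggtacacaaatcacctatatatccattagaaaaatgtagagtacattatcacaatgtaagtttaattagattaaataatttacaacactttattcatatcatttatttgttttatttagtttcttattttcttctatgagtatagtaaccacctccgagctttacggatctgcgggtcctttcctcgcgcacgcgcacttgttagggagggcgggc
MAGT1: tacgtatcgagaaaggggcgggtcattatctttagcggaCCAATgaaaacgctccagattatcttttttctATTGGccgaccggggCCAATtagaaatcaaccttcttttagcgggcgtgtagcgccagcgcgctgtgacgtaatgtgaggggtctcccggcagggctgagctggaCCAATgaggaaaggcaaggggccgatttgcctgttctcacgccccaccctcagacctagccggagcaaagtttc
STT3A: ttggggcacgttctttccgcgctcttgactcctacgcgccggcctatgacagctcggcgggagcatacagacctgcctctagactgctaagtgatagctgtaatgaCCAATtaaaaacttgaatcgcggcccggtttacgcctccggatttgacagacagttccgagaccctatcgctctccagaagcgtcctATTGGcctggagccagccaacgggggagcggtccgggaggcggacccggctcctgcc
CALR: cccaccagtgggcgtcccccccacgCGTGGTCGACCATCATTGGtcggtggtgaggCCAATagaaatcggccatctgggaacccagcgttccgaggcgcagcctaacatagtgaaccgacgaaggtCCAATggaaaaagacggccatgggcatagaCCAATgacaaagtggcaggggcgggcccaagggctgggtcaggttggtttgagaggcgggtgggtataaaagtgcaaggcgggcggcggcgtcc
On GRCh38.p14 these are chr20:37179080-37179329 (RPN2, plus strand), chr4:108650349-108650598 (OSTC, plus strand), chrX:77895436-77895685 (MAGT1, minus strand), chr11:125592602-125592851 (STT3A, plus strand) and chr19:12938359-12938608 (CALR, plus strand). In these stretches RPN2 and OSTC hold 0 CCAAT boxes, STT3A 2, MAGT1 4 and CALR 4, and G and C make up 70.0% of the RPN2 stretch and 38.4% of that of OSTC. A match is a run of letters and not a site shown to be bound.

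STT3A and STT3B are the catalytic subunits, which hold the active site of the enzyme. STT3B had 4637, 4688 and 4929 normalized counts in the 3 DMSO libraries and 4443, 4043 and 4415 at 0.5 nM. At 5 nM it had 4175, 4337 and 4452, at 50 nM 4349.6, 4301 and 4400.3 and at 500 nM 4291, 4312 and 4013. Every treated library lay below every DMSO library, already at 0.5 nM. All doses share the same 3 DMSO libraries, and the share of all genes with this pattern was not counted. The mean went from 4751 ± 156 in DMSO to 4205 ± 167 at 500 nM, a log2 fold change of -0.18 (SE 0.046, 95% confidence interval -0.27 to -0.08, limma adjusted p = 0.011). At 0.5, 5 and 50 nM the log2 fold changes were -0.14, -0.14 and -0.13, with adjusted p = 0.14, 0.15 and 0.13. The call at 500 nM was lost without DMSO replicate 3 (adjusted p = 0.0631) or 500 nM replicate 3 (adjusted p = 0.0688).

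For STT3A, DMSO gave 4963, 4727 and 4884 normalized counts and 500 nM gave 4843, 4748 and 4847. The groups overlapped, and so did those of the other doses with DMSO. The mean was 4858 ± 120.1 in DMSO, 4606 ± 327 at 0.5 nM, 4905 ± 82.8 at 5 nM, 4749 ± 226 at 50 nM and 4813 ± 55.8 at 500 nM. The log2 fold change at 500 nM was -0.013, with an interval of -0.12 to 0.09 (limma adjusted p = 0.90), so that decreases up to 7.72% and increases up to 6.39% lie within it.

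The log2 ratio of STT3A to STT3B within a library, which does not depend on the size factor, was 0.03 ± 0.06 in DMSO and 0.10 ± 0.03, 0.18 ± 0.07, 0.13 ± 0.08 and 0.20 ± 0.07 at the rising doses (SD, n = 3). The lowest library at 500 nM, 0.14, lay above the highest DMSO library, 0.10. Over 15 libraries the slope was 0.035 per step of dose rank (two-sided permutation test, p = 0.012, adjusted p = 0.018 over the 3 subunit pairs tested). The slope did not pass without DMSO replicate 3 (adjusted p = 0.0568) or 500 nM replicate 3 (adjusted p = 0.0561), or among the 12 treated libraries alone (0.0235, adjusted p = 0.301).

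RPN1 and RPN2 form the luminal and membrane scaffold around the catalytic subunit, and RPN1 is near the ribosome exit. RPN1 had 4259, 4207 and 4137 normalized counts in DMSO, 4058, 4115 and 4107 at 0.5 nM and 4218, 4101 and 4017 at 5 nM. At 50 nM it had 3762, 4219.8 and 3698, and at 500 nM 3439, 3456 and 3452. The 3 libraries at 500 nM had an SD of 8.93 and lay below all 12 others, whereas at 50 nM replicate 2 stood with DMSO and the other two below. The means were 4201 ± 61.1 and 3449 ± 8.93, a log2 fold change of -0.28 (SE 0.045, interval -0.38 to -0.19, limma adjusted p = 0.00015). This was the smallest p of the 10 subunits at this dose. At 50 nM the log2 fold change was -0.11 (adjusted p = 0.18).

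RPN2 had 7991, 7845 and 7819 normalized counts in DMSO and 7301, 7369 and 7695 at 0.5 nM. At 5 nM it had 7837, 7738 and 7661, at 50 nM 7861, 8181 and 7668 and at 500 nM 7025, 7149 and 7177. The 500 nM libraries were the lowest of the 15, those at 0.5 nM lay below DMSO as well, and those at 5 and 50 nM overlapped it. From DMSO to 500 nM the mean moved from 7885 ± 92.9 to 7117 ± 80.8, a log2 fold change of -0.15 (SE 0.037, interval -0.23 to -0.07, limma adjusted p = 0.0091).

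Their ratio shifted within the libraries. The log2 ratio of RPN1 to RPN2 was -0.91 ± 0.01 in DMSO, -0.86 ± 0.04 at 0.5 nM, -0.91 ± 0.02 at 5 nM, -1.02 ± 0.06 at 50 nM and -1.05 ± 0.01 at 500 nM (SD, n = 3). All 3 libraries at 500 nM lay below the lowest DMSO library. The slope was -0.043 per dose step (two-sided permutation test over 15 libraries, p = 0.00054, adjusted p = 0.0016), and it passed with each library left out and among the 12 treated libraries alone (-0.0651, adjusted p = 0.00048).

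**Figure D3:**
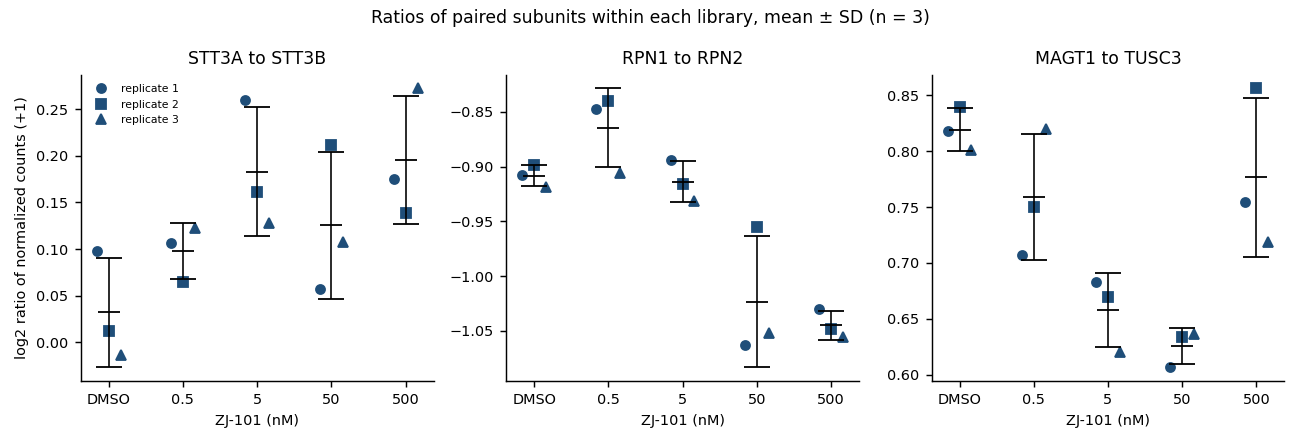
Log2 ratio of paired OST subunits within each of the 15 libraries by ZJ-101 dose, with the mean ± SD of the 3 libraries of a group. The ratio of STT3A to STT3B moves from a mean of 0.03 in DMSO to 0.20 at 500 nM, RPN1 to RPN2 from -0.91 to -1.05, and MAGT1 to TUSC3 is 0.63 at 50 nM and 0.78 at 500 nM.

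DDOST, DAD1 and OST4 complete the shared core. DDOST is needed for the binding of the lipid-linked sugar, DAD1 was first described as a protein whose loss leads to cell death, and OST4 is a short membrane peptide that holds the catalytic subunit in place. None of these 3 passed at any dose. DDOST had 4346, 4239.8 and 4175 normalized counts in DMSO and 3845, 3826 and 4091 at 500 nM, with no overlap. Its log2 fold change at 500 nM was -0.12 (interval -0.23 to -0.005, limma adjusted p = 0.15), and it passed only in the fit of the 6 libraries of this dose and DMSO (adjusted p = 0.0247).

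DAD1 had 2049, 2040.5 and 1925 normalized counts in DMSO and 1851, 1957 and 1936 at 500 nM, and OST4 had 564, 546 and 526 and 522, 526 and 529.9. Both groups overlapped DMSO. The log2 fold changes were -0.07 for DAD1 (interval -0.18 to 0.04, limma adjusted p = 0.45) and -0.05 for OST4 (interval -0.22 to 0.12, adjusted p = 0.73). At 0.5 nM the means of DAD1 and OST4 were 2118 ± 100.05 and 600.0 ± 82.8, above DMSO at 2005 ± 69.4 and 545 ± 19.3, with replicate 2 at 2229 and 693 as the highest library for both genes.

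OSTC, which marks the STT3A form, had 1911, 1913 and 1858 normalized counts in DMSO and 1810.0, 2119 and 1899 at 0.5 nM. At 5 nM it had 1869, 1872 and 1739, at 50 nM 1835, 1924 and 1790.1 and at 500 nM 1684, 1627 and 1746. The 500 nM libraries lay below those of DMSO, and the groups of the other doses overlapped DMSO. The mean fell from 1894 ± 31.5 to 1686 ± 59.4, a log2 fold change of -0.17 (SE 0.054, interval -0.28 to -0.05, limma adjusted p = 0.038). The call was lost without DMSO replicate 1, 2 or 3 (adjusted p = 0.11, 0.114 and 0.0653), without 500 nM replicate 1 or 2 (0.0921 and 0.15), and with no filter on low values.

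MAGT1 and TUSC3, the latter on chromosome 8 from 15417215 to 15766649 (plus strand, GRCh38), are the alternative oxidoreductase subunits of the STT3B form. MAGT1 had 1563, 1534 and 1533 normalized counts in DMSO, 1474, 1446 and 1501 at 0.5 nM and 1383, 1314 and 1358 at 5 nM. At 50 nM it had 1431, 1476 and 1415, and at 500 nM 1440.1, 1425 and 1334. Like STT3B, MAGT1 was lower in every treated library than in any DMSO library, a pattern whose share among all genes was not counted. The lowest mean of MAGT1 was at 5 nM, not at the highest dose. The mean was 1543 ± 16.9 in DMSO, 1351 ± 34.8 at 5 nM and 1399.6 ± 57.6 at 500 nM. The log2 fold change was -0.19 at 5 nM (SE 0.043, interval -0.28 to -0.10, limma adjusted p = 0.022) and -0.14 at 500 nM (interval -0.23 to -0.05, adjusted p = 0.028). At 5 nM the call was lost without any of the 3 DMSO libraries (adjusted p = 0.109, 0.0832 and 0.0743) or any of the 3 libraries of the dose (0.0524, 0.133 and 0.0605), and at 500 nM without any DMSO library (0.0957, 0.0687 and 0.063) or 500 nM replicate 3 (0.151). Both calls were lost with no filter on low values.

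TUSC3 had 886, 857 and 879.6 normalized counts in DMSO, 939, 951 and 909 at 50 nM and 853, 787 and 809.9 at 500 nM. Among the 10 listed subunits, only TUSC3 had libraries above DMSO without overlap at any dose. This was at 50 nM, where 11.6% of all genes did so, and at 500 nM TUSC3 lay below DMSO. Neither difference passed, with log2 fold changes of 0.09 (interval -0.0085 to 0.20, limma adjusted p = 0.34) and -0.10 (interval -0.20 to 0.004, adjusted p = 0.19). The log2 ratio of MAGT1 to TUSC3 was 0.82 ± 0.02 in DMSO, 0.76 ± 0.06, 0.66 ± 0.03 and 0.63 ± 0.02 at 0.5, 5 and 50 nM, and 0.78 ± 0.07 at 500 nM (SD, n = 3). The slope, -0.022 per dose step, did not pass (two-sided permutation test over 15 libraries, p = 0.165, adjusted p = 0.165). It was -0.0362 without 500 nM replicate 2, which passed (adjusted p = 0.017), and 0.00208 among the 12 treated libraries alone (adjusted p = 0.922).

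Dose dependence was tested by regressing the log2 values on dose rank, from DMSO to 500 nM. RPN1 and OSTC fell, 2 of 10 subunits, where 17.6% of all genes had a slope past the threshold and 9.33% had a downward one. RPN1 fell by 0.064 per dose step on the log2 scale (SE 0.012, limma adjusted p = 0.00089) and OSTC by 0.041 (SE 0.013, adjusted p = 0.038). STT3B, with a slope of -0.033, and MAGT1, with -0.032, did not pass (adjusted p = 0.056 and 0.078). The count was 4 without 0.5 nM replicate 2. It was 1, with OSTC lost (adjusted p = 0.0526 to 0.143), when any of 7 libraries was left out, namely replicates 1 and 2 of DMSO, replicate 3 of 0.5 nM, replicate 3 of 50 nM and all 3 of 500 nM.

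Contrasts between neighbouring doses do not use the DMSO group, whose libraries enter only the shared estimate of the spread. From 0.5 to 5 nM, 0 of 10 subunits passed with limma, edgeR or DESeq2, with 1 lower at an unadjusted p under 0.05, where 0.118% of all genes changed. From 5 to 50 nM, 0 subunits passed with any of these tools, with 2 higher at an unadjusted p under 0.05, where 5.01% of all genes changed. Without 50 nM replicate 2, 1 subunit passed, and it was lower at 50 nM. From 50 to 500 nM, RPN2 and TUSC3 fell, where 2.28% of all genes changed and 1.8% fell. The log2 differences were -0.15 for RPN2 (interval -0.23 to -0.07, limma adjusted p = 0.040) and -0.19 for TUSC3 (interval -0.30 to -0.09, adjusted p = 0.043), and RPN1 at -0.17 just missed (adjusted p = 0.051). These 2 calls lay near the threshold and were lost in many alternatives. Leaving out a DMSO or 5 nM library left both log2 differences unchanged and moved only the adjusted p. The count was 0 without any DMSO library, any 5 nM library, 50 nM replicate 1 or 2, 500 nM replicate 2 or 3, or the filter on low values, 1 without 500 nM replicate 1, and 3 without 0.5 nM replicate 2 or 3. TUSC3 was also lost without 50 nM replicate 3 (adjusted p = 0.0676) and with DESeq2 (adjusted p = 0.0698).

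Levels between subunits can be compared only per length. Per kilobase of the union of exons, DMSO-treated cells held 2634 ± 91.2 normalized counts of DAD1, 2357 ± 27.8 of RPN2, 1563 ± 31.7 of DDOST, 1172 ± 19.5 of OSTC and 1059.6 ± 15.4 of RPN1 (SD, n = 3). STT3B followed with 949 ± 31.1, OST4 with 909 ± 32.2 and STT3A with 659 ± 16.3, and MAGT1 and TUSC3 closed the order with 227 ± 2.48 and 168 ± 2.95. STT3B and OST4 overlapped between libraries, and all other neighbours in this order were apart. The order depended on the length used. RPN1 passed OSTC with the longest transcript and with the MANE Select transcript, the latter a length chosen after seeing the data. RPN2 passed DAD1 and OST4 passed STT3B, with overlap, in the MANE Select order, and STT3A passed OST4 in the order by longest transcript. MAGT1 and TUSC3 were lowest with each length, and STT3B stood above STT3A with each.

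**Figure D4:**
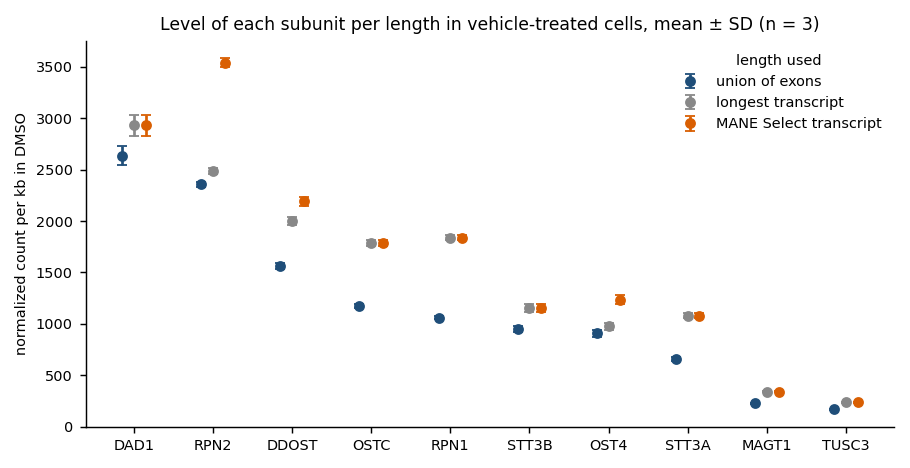
Normalized counts per kilobase of each OST subunit in the 3 DMSO libraries, as mean ± SD, with lengths from the union of exons, the longest transcript or the MANE Select transcript. By the union of exons the levels run from 2634 for DAD1 to 168 for TUSC3, and the order of several neighbours changes with the length used.

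Of 3 other proteins of the complex, 1 fell at 500 nM. MLEC (malectin), an ER lectin that binds glucosylated N-glycans and associates with RPN1, had 5664, 5719.8 and 5397 normalized counts in DMSO, 3941, 4132 and 4089 at 50 nM and 3993, 3805 and 3764 at 500 nM. The libraries at 50 and 500 nM lay far below DMSO, and those at 0.5 and 5 nM overlapped it. The log2 fold change was -0.46 at 50 nM (limma adjusted p = 3.7e-06) and -0.54 at 500 nM (SE 0.049, interval -0.64 to -0.43, adjusted p = 2.3e-07), and the call at 500 nM held in every alternative tried. TMEM258, a small subunit, had 474 ± 27.2 and 469.8 ± 12.2 normalized counts (log2 fold change -0.011, interval -0.16 to 0.14, adjusted p = 0.95). KRTCAP2, the partner of OSTC in the STT3A form, was near the filter with 12.3 ± 3.80 in DMSO and 22.1 ± 11 at 500 nM (log2 fold change 0.72, interval 0.06 to 1.39, adjusted p = 0.13, and 0.0462 without 500 nM replicate 1). Of its MANE Select transcript, 83.7% overlaps another protein-coding gene on the same strand, so its count is uncertain. Over the union of its exons, the measure given above for the subunits, the overlap is 18.5%.

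Genes of the steps before and after OST passed in opposite directions. Of 24 genes that build the dolichol-linked sugar, 9 rose at 500 nM and 0 fell, also with edgeR and DESeq2, and 0 were lower at an unadjusted p under 0.05. The median log2 fold change was 0.20, and 7.69% of all genes were higher at 500 nM. At 0.5, 5 and 50 nM, 0, 1 and 5 genes of the list had risen, as had 34, 63 and 311 of the 13561 genes tested. ALG2, a mannosyltransferase of the early steps, went from 979 ± 17.9 to 1313 ± 58.4 normalized counts (log2 fold change 0.42, SE 0.048, limma adjusted p = 3.6e-06). DOLPP1, which recycles the dolichol carrier, went from 508 ± 18 to 695 ± 26.9 (0.45, SE 0.060, adjusted p = 2.1e-05). Each of the 3 libraries at 500 nM lay above DMSO for both genes.

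After OST, glucosidases trim the sugar, the calnexin cycle reads it to check folding, and ER mannosidases mark chains that fail to fold for degradation. Of 13 genes of glycan trimming and quality control, 9 fell at 500 nM and 0 rose, also with edgeR and DESeq2, and 0 were higher at an unadjusted p under 0.05. The median log2 fold change was -0.40, and 10.1% of all genes were lower at 500 nM. At 0.5, 5 and 50 nM, 0, 2 and 5 genes of the list had fallen, as had 125, 232 and 503 of the 13561 genes tested. By a division into roles made after seeing the data, 5 of 8 genes of glucosidases and the calnexin cycle fell (MOGS, GANAB, CALR, PDIA3 and UGGT2), with a median of -0.28, and so did 4 of 4 mannosidases (MAN1B1, EDEM1, EDEM2 and EDEM3), with a median of -0.50. NGLY1, which removes N-glycans from proteins in the cytosol, had a log2 fold change of 0.05 and did not pass. MOGS, the glucosidase that removes the outermost glucose, had 1505, 1352 and 1301 normalized counts in DMSO and 714, 671 and 669 at 500 nM (log2 fold change -1.01, SE 0.055, limma adjusted p = 2.6e-10). CALR (calreticulin), whose ERSE is shown above, had 20406, 20405 and 19655 and 11097, 10860.2 and 11587 (log2 fold change -0.85, SE 0.049, adjusted p = 5.2e-10). Both genes were already lower at 5 nM, with 1038, 1069 and 1091 for MOGS and 16902, 16883 and 17005 for CALR, without overlap with DMSO. ERSE was found in 2 of the 11 genes of this list with a promoter entry, CALR and CANX, and HSE in 1, PRKCSH, and neither CANX nor PRKCSH passed at 500 nM. Of the 22 assembly genes with an entry, ALG12 held an ERSE and DHDDS a UPRE.

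The translocon through which OST substrates enter, with signal peptidase and the signal recognition particle receptor, had 3 rises and 2 falls among 17 genes at 500 nM and a median of 0.06. SEC62, an accessory of the channel, rose from 2595 ± 25.3 to 3279 ± 123.3 normalized counts (log2 fold change 0.34, limma adjusted p = 6.4e-05), and SRPRB, of the receptor, from 559 ± 24.9 to 727 ± 13.2 (0.38, adjusted p = 0.0010). SPCS3, of signal peptidase, fell from 1775 ± 32.1 to 1389.6 ± 38.9 (-0.35, adjusted p = 1.4e-05), and SSR1, of the translocon-associated TRAP complex, from 4357 ± 51.1 to 3711 ± 112 (-0.23, adjusted p = 0.00011). UPRE was in 3 of the 14 genes of this list with a promoter entry, SEC62, SSR3 and SSR4. These 3 lists were counted beside all genes tested, of which 7.69% were higher and 10.1% lower, and no difference between lists was tested.

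**Figure D5:**
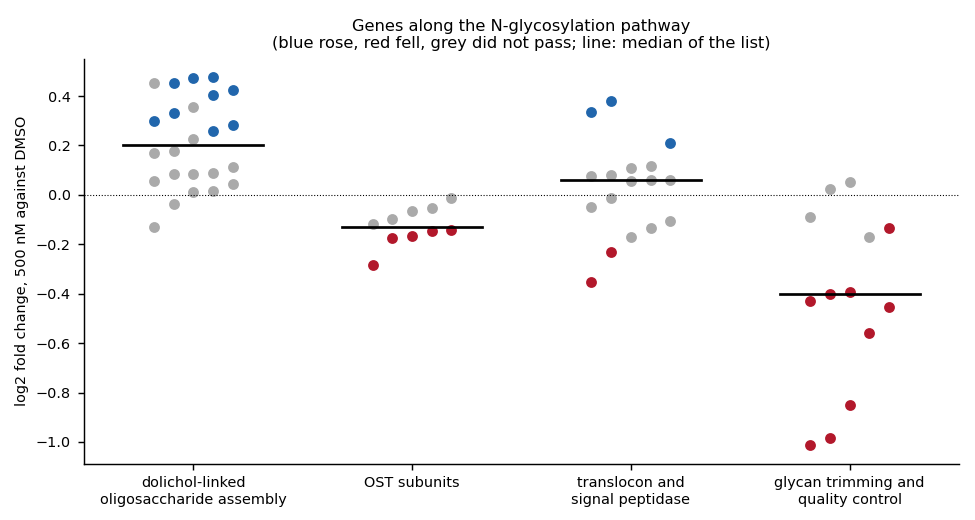
Log2 fold change at 500 nM ZJ-101 against DMSO of each gene along the N-glycosylation pathway, in 4 lists, blue for genes that rose and red for genes that fell by limma at an adjusted p under 0.05, grey for the rest, with a line at the median of each list. The medians are 0.20 for assembly of the dolichol-linked sugar, -0.13 for the OST subunits, 0.06 for the translocon and signal peptidase and -0.40 for glycan trimming and quality control, which holds glucosidases, the calnexin cycle, mannosidases and NGLY1.

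The genes with the profile most like that of the 10 subunits were found by Euclidean distance over the 15 libraries, between log2 values centred on their mean. Nearest to the mean of the subunits were MORF4L1 (0.106), GNAI2 (0.109), PIGT (0.117), RAB11A (0.119) and ANXA7 (0.126), where the median over 13551 genes was 0.541. PIGT is a subunit of the transamidase that attaches glycosylphosphatidylinositol anchors in the ER, and RAB11A a small GTPase of recycling endosomes. The subunits themselves lay at distances of 0.150 (RPN2) to 0.353 (OST4) from their mean. Each of these 5 genes was closer to it than any subunit. They were picked as the nearest of 13551 genes, whereas the subunits were not picked by distance. Among the genes nearest to RPN1 were TAGLN2 (0.155) and LDHA (0.158), with a median of 0.675 over all genes. All these distances come from the same 15 libraries and are given as a description.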

How the data were processed

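The deposited signal values are normalized counts. The authors mapped read pairs from poly-A RNA with HISAT2 (hg38), assigned them to genes with HTSeq and scaled the libraries by DESeq2 size factors. Versions, the GENCODE release and the strand setting are not given in the sources used here. 1 line without a gene was left out. The smallest step of a library is the worth of 1 read, and in these steps 100% of the values were whole within 0.001. Size factors were 0.916 to 1.13. A chi-square test of replicate pairs gave 2.04 to 16.6 per degree of freedom, so no pair differed by counting error alone. The highest values, 11.1 and 16.6, came from pairs with 0.5 nM replicate 2. This test cannot show whether libraries came from separate dishes.

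limma 3.58.1 (R 4.3.3) was run on log2(normalized count + 1), with eBayes trend, for 13561 genes with a mean of at least 10. All 15 libraries entered 1 fit, and the threshold was a Benjamini-Hochberg adjusted p of 0.05 over all genes tested. Fold changes are on the scale of log2(normalized count + 1). Slopes used dose ranks. Ratios of 3 subunit pairs were tested with 100000 permutations. Promoters and gene models came from RefSeq and GENCODE 44. minimap2 2.31-r1302 aligned the MANE Select transcripts of the OST genes to hg38 to find copies. Scripts were tested on simulated data.

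The members, lists and tests were chosen with earlier results of these data known. Named were the 10 subunits, 3 other OST proteins, up to 2 rises and 2 falls with the smallest p per pathway list at 500 nM, the 5 genes nearest to the subunits' mean profile and the 3 nearest to that of the subunit with the smallest p at 500 nM, of which 1 is not reported here. Alternatives were other pseudocounts, filters and scalings, edgeR 4.0.16 and DESeq2 1.42.0 on the recovered reads, the replicate number as a block, fewer libraries and each library left out. The replicates are separate dishes of 1 cell line, and p-values set differences and slopes against the spread between such dishes. Counting error is not the only error of these reads, which carry no molecular identifiers.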

Additional observations from a re-analysis of the deposited data

How the results depend on the processing

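RPN1 and RPN2 at 500 nM, MLEC and the 8 genes named from the pathway lists kept direction and side of the threshold in all alternatives run. When only the 6 libraries compared entered a fit, 21 genes passed at 0.5 nM and 846 at 5 nM, 2 OST subunits at 5 nM and 8 translocon genes at 500 nM. At an adjusted p under 0.1, 285, 497 and 473 genes passed at 0.5 nM, at 5 nM and from 50 to 500 nM, and 4 subunits by slope. Without the filter on low values, which tests more genes, 0, 3, 0 and 1 subunits passed at 5 nM, at 500 nM, from 50 to 500 nM and by slope. DESeq2 gave 29 genes from 0.5 to 5 nM. Among the 12 treated libraries the slope of the ratio was 0.0235 for STT3A to STT3B and 0.00208 for MAGT1 to TUSC3, against 0.035 and -0.022 with all 15. Near-zero values at 500 nM changed sign, with STT3A at 0.00227 without DMSO replicate 1 (range -0.0329 to 0.00227 with each library left out) and TMEM258 at 0.0147, 0.0125 and 0.00415 without DMSO replicate 1, DMSO replicate 2 and 500 nM replicate 3 (range -0.0591 to 0.0147). Apart from the construction of these settings, the cause was not tested.

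With each library left out in turn, genes called ranged from 19 to 391 at 0.5 nM, 113 to 623 at 5 nM, 560 to 1276 at 50 nM, 1795 to 3097 at 500 nM, 7 to 25 from 0.5 to 5 nM, 424 to 1129 from 5 to 50 nM, 139 to 630 from 50 to 500 nM and 1783 to 2688 by slope. OST subunits called ranged from 0 to 0 at 0.5 nM and from 0.5 to 5 nM, 0 to 2 at 5 nM, 0 to 1 at 50 nM and from 5 to 50 nM, 2 to 5 at 500 nM, 0 to 3 from 50 to 500 nM and 1 to 4 by slope. At 500 nM, other OST proteins ranged from 1 to 2, dolichol-linked assembly from 8 to 11, translocon from 5 to 6 and glycan trimming and quality control from 8 to 11. The slopes of the ratios ranged from 0.0292 to 0.0402, -0.0477 to -0.0407 and -0.0362 to -0.0162 for STT3A to STT3B, RPN1 to RPN2 and MAGT1 to TUSC3.

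The labels number the replicates and state no pairing between groups. Deviations of same-numbered libraries correlated at -0.0855 to 0.0961 over 30 pairs, 0 of them over 0.1, and 7 of 15 libraries were closest to their own number. With the replicate number as a block, 2506 genes and 5 subunits passed at 500 nM, 2371 genes and 2 subunits by slope, and 3 subunits from 50 to 500 nM.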
